A study of Arabidopsis thaliana with 6 samples.

Results

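The plastid genes rpoB, rpoC1 and rpoC2, which lie in a row on the plastid genome and are transcribed as one operon, and rps2, the gene next to rpoC2, are described here in shoots of Brassica oleracea. They were chosen by name: a member is a probe set whose only annotated gene is one of these 4. Each gene has 1 probe set, and these 4 genes stand among 69 plastid genes and 11392 genes in all that have a probe set of their own with a value on every array. The names and the gene order are those of Arabidopsis, because the Brassica RNA was measured on ATH1, an Affymetrix array with probes made for the related Arabidopsis thaliana.

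The series compared P-starved with nutrient-replete shoots to find transcripts that respond to phosphate starvation. All 6 arrays carry RNA of one line, B. oleracea var. alboglabra A12dH, from plants kept in compost with a 16 h day at 22 °C and 70% to 80% humidity. The 3 P-starved arrays and the 3 replete arrays are numbered 1 to 3 in each group. The labels give neither the age of the plants nor how phosphate was withheld, and do not say whether replicates were separate plants or harvests, so p-values here reflect no more than the spread among these 6 samples, which may be technical. Being from 1 line, the samples do not show how other Brassica lines respond. In whole shoots, fewer cells of a type and less RNA per cell cannot be told apart.

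Plastids of land plants transcribe their genes with 2 kinds of RNA polymerase. One is of bacterial type: its core is encoded in the plastid itself, by rpoA (alpha subunit), rpoB (beta), rpoC1 (beta prime) and rpoC2 (beta double prime), and it needs sigma factors made from nuclear genes. The other is a phage-type enzyme encoded in the nucleus. It transcribes the rpoB operon, and the plastid-encoded enzyme then transcribes most genes of photosynthesis. The gene rps2 encodes protein S2 of the small subunit of the plastid ribosome.

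The arrays fall into 2 processing sets by the probe sets they list. The replicate 1 array of each group lists 22810, the other 4 arrays list 19642, and 19578 were tested after control probe sets were left out. Median signals of these were 67.8 on P-starved and 67.15 on replete replicate 1, and 43.8 to 46.4 on the other 4 arrays. Over all tested probe sets, Pearson's r of log2(signal + 16) was 0.93 between the replicate 1 arrays and 0.90 to 0.92 among the other 4. Between the sets it was 0.61 to 0.63, so both replicate 1 arrays differed from the others well beyond the plastid genes. The replete replicate 1 array stood apart for plastid genes: 63 of the 69 had their highest signal there, against 25.8% of all tested probe sets. The 25S ribosomal RNA control was also high on it, with signals of 881, 175 and 335 on P-starved replicates 1, 2 and 3 and of 3767, 111 and 101 on replete replicates 1, 2 and 3. Whether the RNA behind the 25S signal bears on the results below was not tested, but fits without each array are given. Results are stated over all arrays, on the replicate 1 arrays (1 against 1, with no replicate check) and on the replicate 2 and 3 arrays. Of 8 shoot markers, 3 were measured by name on all arrays (LHCB4.1, PRK and SBPASE), and their summed signal was 8302, 3023 and 2578 on P-starved and 10760, 2598 and 3065 on replete replicates 1, 2 and 3. It was thus high on both replicate 1 arrays, as many plastid genes were, and the part of this in the ratios between arrays of a group was not tested. The 2 measured of 6 root markers, PYK10 and EXPA7, summed to 82.2 to 142.6 on P-starved and 70.9 to 111.3 on replete arrays. Levels of different probe sets are not compared with each other as amounts of RNA.

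All 4 genes had their highest signal on replete replicate 1. On the replicate 1 arrays each of them was more than 4-fold lower in P-starved than in replete shoots. On the replicate 2 and 3 arrays rpoC1 and rpoC2 were still lower in P-starved shoots and rpoB and rps2 were higher. None of the 4 passed the adjusted threshold of 0.05 in limma, which called 0 of 19578 probe sets in either direction (0% lower, 0% higher).

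The beta subunit gene rpoB (ArthCp014, probe set 244999) had signals of 40.6, 45.3 and 54.5 on P-starved replicates 1, 2 and 3, and of 257.3, 27.5 and 41.6 on replete replicates 1, 2 and 3. The P-starved arrays were close to each other, and the replete arrays ranged from below to far above them. The mean was 46.8 ± 7.06 in P-starved and 108.8 ± 129 in replete shoots (SD, n = 3 each). On the scale of log2(signal + 16) the difference was -0.50 ± 0.59 (SE), with an adjusted p of 0.845 from limma. Most rpoB signals were dim, and on this scale differences between single dim arrays are understated. The group difference over all arrays was -0.51 with an offset of 4 in place of 16.

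For rpoC1 (ArthCp013, probe set 244998), the beta prime gene, the signals were 295.5, 130.4 and 45.2 on P-starved and 2008, 125.6 and 152.6 on replete replicates 1, 2 and 3. P-starved replicate 3 was the lowest and replete replicate 1 the highest of the 6, and the other 4 overlapped. The group means were 157.0 ± 127 and 762.1 ± 1080 (P-starved and replete, SD, n = 3 each). The log2 difference was -1.37 ± 0.53 (SE), with an unadjusted p of 0.0428 and an adjusted p of 0.788 in limma.

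The beta double prime gene rpoC2 (ArthCp012, probe set 244997) had 343.5, 170.3 and 155.3 on P-starved replicates 1, 2 and 3, against 1770, 285.6 and 278.5 on replete replicates 1, 2 and 3. Within each processing set every P-starved array lay under every replete array, and across the sets P-starved replicate 1 lay above replete replicates 2 and 3. Lower values without overlap in either set were found for 8.59% of all tested probe sets. The means were 223.1 ± 105 in P-starved and 778.1 ± 859 in replete shoots (SD, n = 3 each), and the log2 difference was -1.26 ± 0.34 (SE), with an unadjusted p of 0.0112 and an adjusted p of 0.788 in limma.

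The ribosomal protein gene rps2 (ArthCp011, probe set 244996) had 747.0, 992.4 and 924.3 on P-starved and 6548 on the first replete array, followed by 895.8 and 621.4 on replete replicates 2 and 3. The first replete array lay far above the other 5, and P-starved replicate 1 lay between the remaining replete arrays. Mean signals were 887.9 ± 127 in P-starved and 2688 ± 3350 in replete shoots (SD, n = 3 each). The log2 difference was -0.80 ± 0.71 (SE), and limma gave an adjusted p of 0.805.

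**Figure D1:**
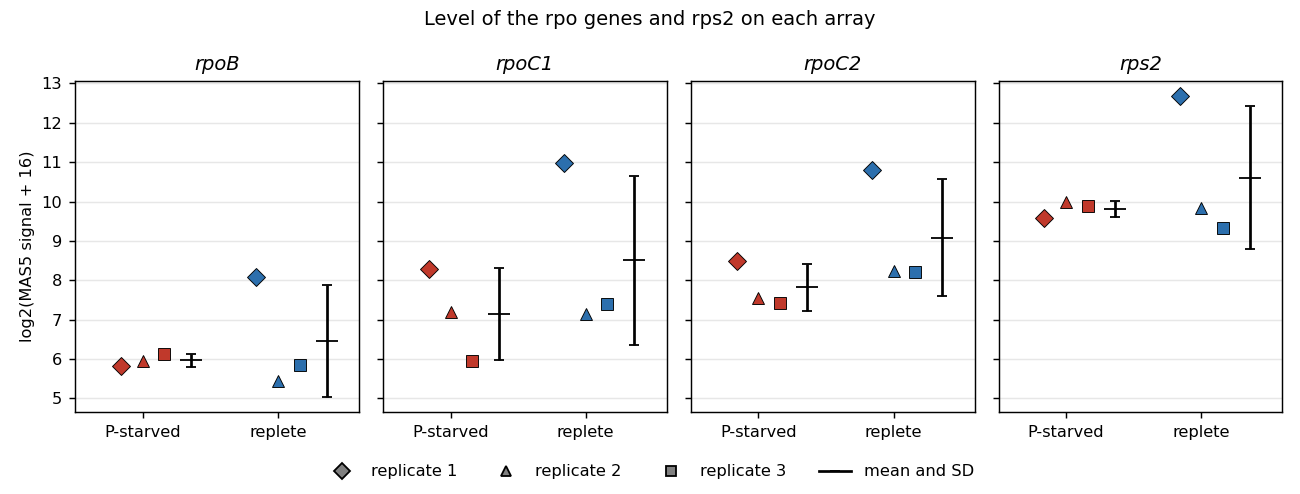
Level of each gene as log2(MAS5 signal + 16) on every array, P-starved at left and replete at right, with marker shape for the replicate and a bar for the mean and SD of 3 arrays. Replete replicate 1 is the highest array in every panel, at 8.09 for rpoB, 10.98 for rpoC1, 10.80 for rpoC2 and 12.68 for rps2.

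Ordered by the log2 difference, rpoC1 was the furthest below 0, followed by rpoC2, rps2 and rpoB, and each step in this order was smaller than the larger SE of its 2 genes. The median of the 4 differences was -1.03, against 0.02 over all tested probe sets. At an unadjusted p under 0.05, 2 of the 4 were lower, against 3.2% of all tested probe sets, and 0 were higher, against 2.71%. Of the other 65 plastid genes 11 were lower at that mark and 0 higher, and their median difference was -0.28. These p come from the fit with the processing set as a block. With group as the only term the differences were the same, the SE rose to 1.09 for rpoC1 and 0.73 for rpoC2, and their unadjusted p in limma were 0.25 and 0.129. The unadjusted p of rpoC1 was also above 0.05 with the replicate number as a block (0.054), with an offset of 64 (0.0554) and without the trend (0.0579), which leaves 1 of the 4. None of the 4 genes had P-starved and replete arrays without overlap over all 6 arrays, which 4.25% of the tested probe sets had.

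On the replicate 1 arrays the signal in P-starved shoots was 6.34-fold lower for rpoB, 6.80-fold for rpoC1, 5.15-fold for rpoC2 and 8.77-fold for rps2. On the log2(signal + 16) scale these differences were -2.27, -2.70, -2.31 and -3.10. All 4 passed a 4-fold mark on that scale, as 60 of 19578 probe sets did (0.306%). It was passed by 10.8% of the other 65 plastid genes and by 0.185% of the nuclear probe sets with 1 gene. Since this is 1 array against 1, no p-value is given.

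On the replicate 2 and 3 arrays the genes parted. There rpoC1 and rpoC2 had 0.631 and 0.577 times the replete mean signal in P-starved shoots, with log2 differences of -0.71 and -0.74. For rpoC2 the arrays did not overlap, and 16.1% of all tested probe sets were lower without overlap there. In limma on these 4 arrays rpoC2 had an unadjusted p of 0.0101 and an adjusted p of 0.547, and rpoC1 0.226 and 0.791. Values of rpoB and rps2 were 1.44 and 1.26 times the replete mean, with log2 differences of 0.39 and 0.35. Both were higher without overlap, as were 23.2% of all tested probe sets.

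Whether the difference itself was unlike in the 2 sets was tested with a group by processing set term in limma. The replicate 1 side of this comparison is 1 array against 1, so its SE and p rest on the spread of the replicate 2 and 3 arrays (with limma's pooling over probe sets) and assume that the replicate 1 arrays vary alike, which was not tested. The difference on the replicate 2 and 3 arrays minus that on the replicate 1 arrays was 3.46 ± 0.38 (SE) for rps2, 2.66 ± 0.50 for rpoB, 1.99 ± 0.86 for rpoC1 and 1.57 ± 0.24 for rpoC2. The unadjusted p were 0.00117, 0.0072, 0.0856 and 0.0037 in the same order. The first, the second and the fourth are under 0.05 in the positive direction, as are 5.43% of all tested probe sets. So are 25 of the other 65 plastid genes. The median of this term was 0.88 for those 65 and 0.01 over all tested probe sets. After Benjamini-Hochberg adjustment over all probe sets the p were 0.155, 0.272, 0.59 and 0.215, and 0 of 19578 passed, with a smallest adjusted p of 0.15.

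The 4 genes also differed in how far the replicate 1 array of a group stood from the other arrays of that group. The signal on P-starved replicate 1 was 0.814 times the mean of P-starved replicates 2 and 3 for rpoB, 3.37 times for rpoC1, 2.11 times for rpoC2 and 0.779 times for rps2. In the replete group the matching ratios were 7.45, 14.4, 6.28 and 8.63. For the other 65 plastid genes the median ratio was 1.58 in the P-starved and 3.22 in the replete group. By this ratio rps2 and rpoB stood 66th and 64th from the top of the 69 plastid genes in P-starved shoots, but the seventh and the tenth in replete shoots, while rpoC1 was the seventh and the third.

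**Figure D2:**
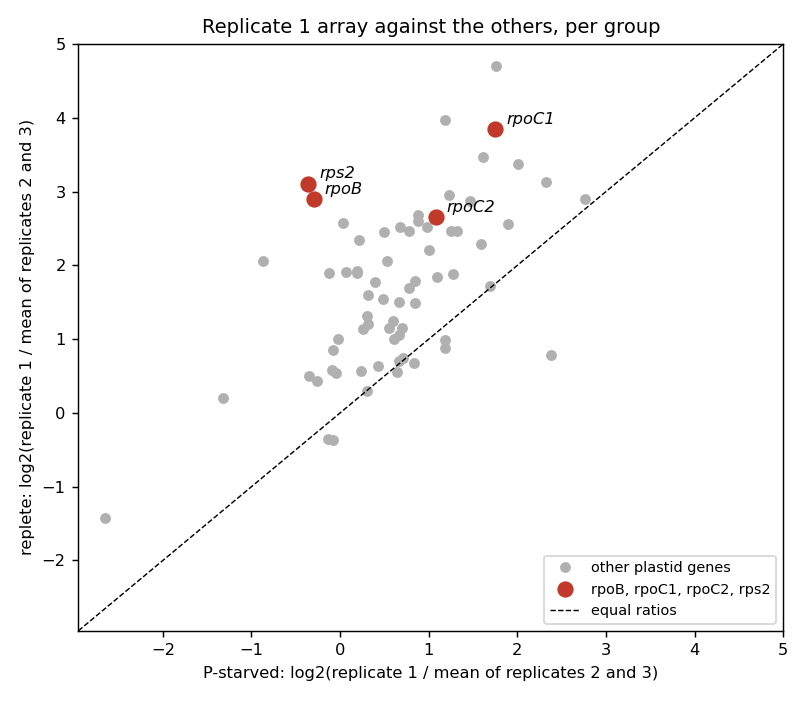
Each point is a plastid gene, with the log2 ratio of its replicate 1 signal to the mean of replicates 2 and 3 in P-starved shoots on the x axis and in replete shoots on the y axis. Most genes lie above the dashed line of equal ratios; rps2 and rpoB lie left of 0 on the x axis (ratios of 0.779 and 0.814) and far up on the y axis (8.63 and 7.45).

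Leaving out either replicate 1 array turned the direction of rpoB and rps2, to a log2 difference of 0.39 and 0.35, and brought rpoC1 to -0.71 and rpoC2 to -0.74. With the set as a block, either omission leaves the difference to the replicate 2 and 3 arrays. Leaving out any of the other 4 arrays kept all 4 genes lower in P-starved shoots, with log2 differences between -0.63 and -0.86 for rpoB, -1.20 and -1.92 for rpoC1, -1.38 and -1.45 for rpoC2, and -0.98 and -1.28 for rps2. The unadjusted p of rpoC2 was 0.0219 or less in every one of these 6 fits, and its adjusted p was between 0.506 and 0.865 (limma). That of rpoC1 was above 0.05 in 4 of the 6, without replicate 1 or 3 of either group, at 0.076 to 0.228.

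**Figure D3:**
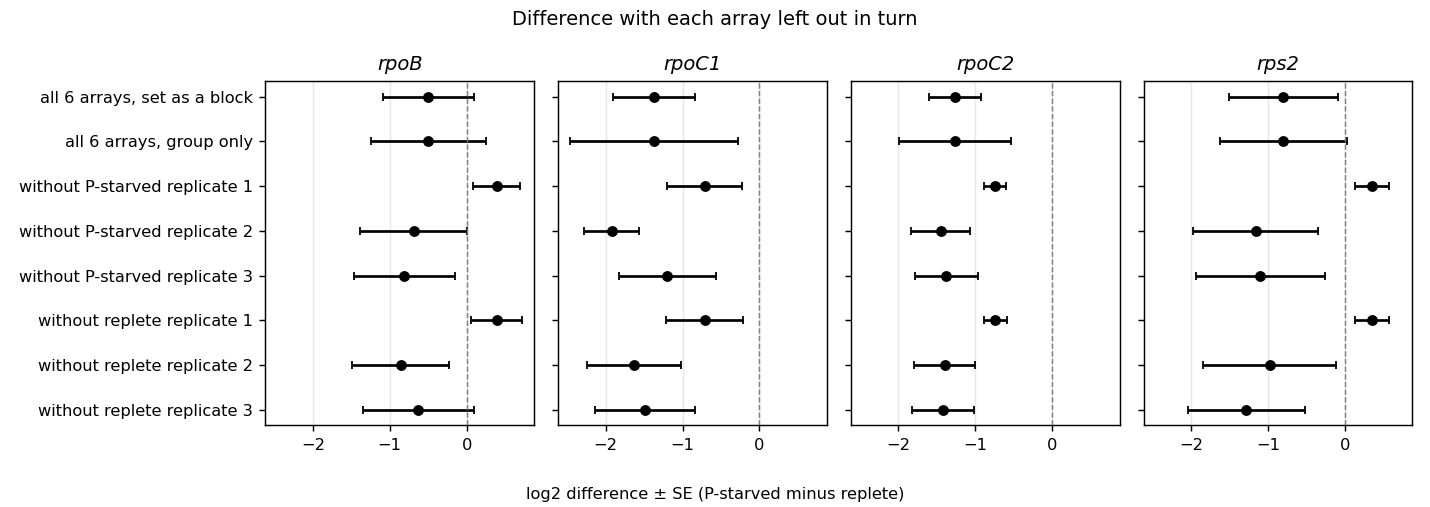
Log2 difference (P-starved minus replete) with its SE for each gene over all 6 arrays, with and without the processing set as a block, and with each array left out in turn. For rpoC1 and rpoC2 every point lies below 0, whereas for rpoB and rps2 the fits without a replicate 1 array lie above 0, at 0.39 and 0.35.

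Set among the plastid genes, rpoB, rpoC1, rpoC2 and rps2 form an unbroken run of low differences on the replicate 1 arrays. Of the 69 plastid genes 67 were lower in P-starved shoots there, and the other 65 had a median log2 difference of -0.61. Counted from the lowest, rps2 was the second, rpoC1 the third, rpoC2 the seventh and rpoB the eighth of the 69. The 4-fold mark was also passed by 7 of the other 65, which are rpl22, rpl14, ndhI, accD, rpl16, ndhH and psaB. The value nearest inside the mark was that of psaB (-2.02) and the nearest outside that of ndhE (-1.78). On the replicate 2 and 3 arrays 34 of the 69 were lower and 35 higher, and the median of the other 65 was 0.01. Over all arrays rpoC1 was the second, rpoC2 the third, rps2 the eleventh and rpoB 25th from the lowest.

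**Figure D4:**
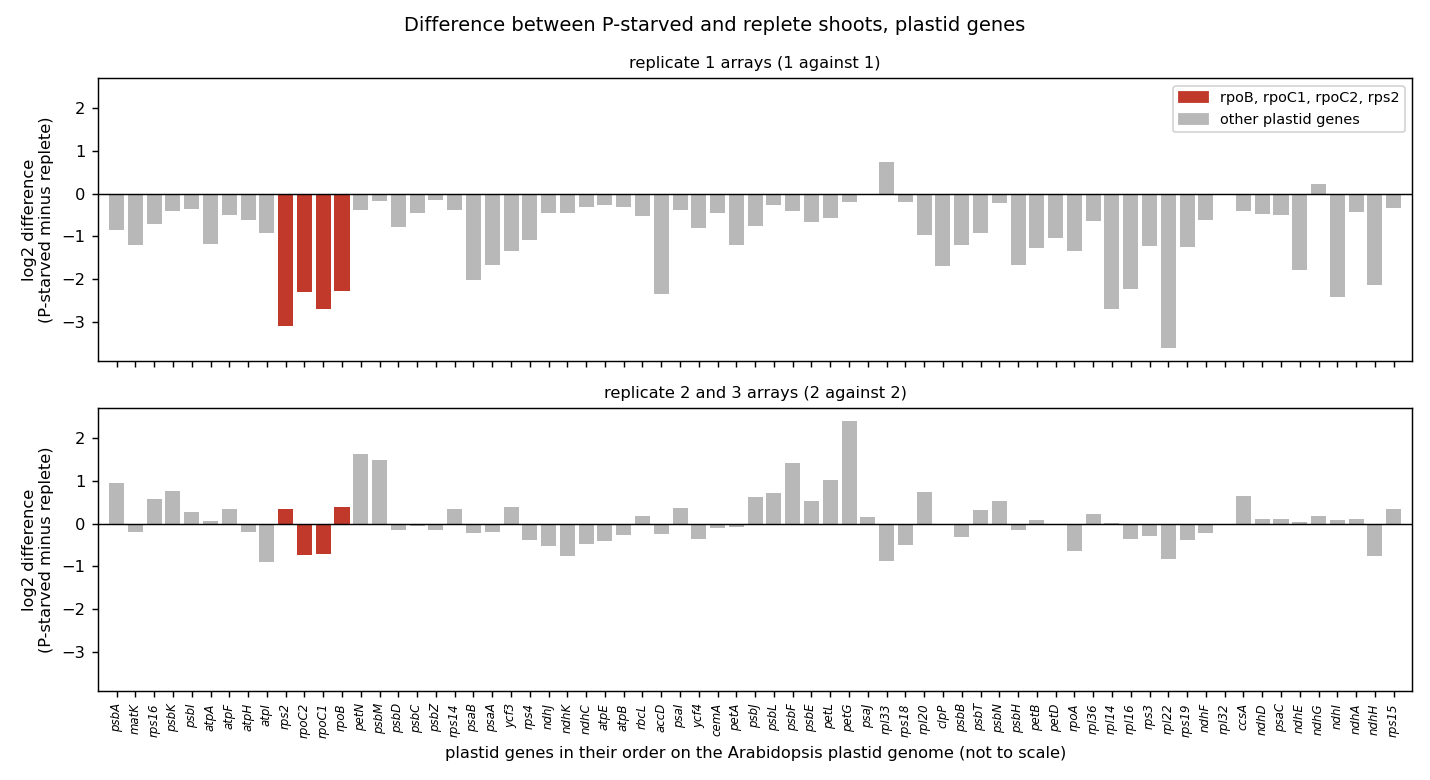
Log2 difference (P-starved minus replete) of 69 plastid genes in their order on the Arabidopsis plastid genome, on the replicate 1 arrays above and on the replicate 2 and 3 arrays below, with rps2, rpoC2, rpoC1 and rpoB in red. The red bars reach -2.27 to -3.10 in the upper panel and lie between -0.74 and 0.39 in the lower one.

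The genes on either side of the run had smaller differences on the replicate 1 arrays. After rps2 come atpI, atpH, atpF and atpA, which encode subunits of the chloroplast ATP synthase, and their log2 differences there were -0.93, -0.61, -0.51 and -1.18. Over all arrays atpI had -0.90 ± 0.14 (SE), at -0.93 for replicate 1 and -0.89 for replicates 2 and 3, so that it did not share the gap between the sets seen in its neighbour rps2. The unadjusted p of atpI was 0.000992 and its adjusted p 0.788 in limma. The other 3 had -0.34 for atpH, 0.07 for atpF and -0.36 for atpA. On the other side of rpoB lie petN, for a small subunit of the cytochrome b6f complex, and psbM, for a small subunit of photosystem II. They had -0.38 and -0.17 for replicate 1 and 1.62 and 1.50 for replicates 2 and 3.

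The remaining core subunit gene, rpoA (ArthCp055), lies elsewhere on the plastid genome, among ribosomal protein genes. It had signals of 810.8, 779.4 and 952.3 on P-starved and of 2070, 1593 and 1169 on replete replicates 1, 2 and 3. Here the groups did not overlap. Its log2 difference was -0.88 ± 0.21 (SE), with an unadjusted p of 0.00734 and an adjusted p of 0.788 in limma, at -1.34 for replicate 1 and -0.65 for replicates 2 and 3. All 4 core subunit genes of the plastid-encoded polymerase were lower on the replicate 1 arrays, as were 67 of the 69 plastid genes. On the replicate 2 and 3 arrays 3 of the 4 were lower (rpoA, rpoC1 and rpoC2), as were 34 of the 69.

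Besides the rpoB operon, 4 plastid genes were listed as transcribed by the nuclear-encoded polymerase, and 2 of the 4, accD and clpP, were measured by name. The list was a choice made here and does not stand for all genes read by that enzyme. The gene accD encodes a subunit of acetyl-CoA carboxylase of fatty acid synthesis, and clpP the proteolytic subunit of the Clp protease. For accD the signals were 1447, 1516 and 979.3 on P-starved and 7438, 1634 and 1300 on replete replicates 1, 2 and 3. Replete replicate 1 was the highest array, as for 63 of the 69 plastid genes. The log2 difference of accD was -0.95 ± 0.46 (SE), at -2.35 for replicate 1 and -0.25 for replicates 2 and 3. That of clpP was -0.57 ± 0.38, and its signal on the replicate 1 arrays was 3445 in P-starved and 11223 in replete shoots. On the replicate 2 and 3 arrays the P-starved mean signal of clpP was 1.01 times the replete mean.

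Among the other plastid genes of the small ribosomal subunit, to which rps2 belongs, 7 of 11 were measured by name. On the replicate 1 arrays 7 of these 7 were lower, at a median of -0.71 on the log2 scale, and 0 were past the 4-fold mark. On the replicate 2 and 3 arrays 4 were lower and 3 higher, with a median of -0.29. Over all arrays 4 were lower and 3 higher, with a median of -0.40, and none passed the adjusted threshold. Their smallest unadjusted p were those of rps19 (-0.67 ± 0.23), rps3 (-0.60 ± 0.23) and rps18 (-0.40 ± 0.17; SE). Of the large subunit 7 of 9 were measured by name, of which 6 were lower and 1 higher over all arrays, with a median of -0.33. Here rpl22 had -1.75 ± 0.64, rpl16 -0.99 ± 0.45 and rpl14 -0.89 ± 0.62. These 3 were past the 4-fold mark on the replicate 1 arrays. There 6 of the 7 were lower, at a median of -0.96, and rpl33 was higher, at 0.74. On the replicate 2 and 3 arrays rpl22, rpl16 and rpl14 had -0.83, -0.36 and 0.01 and rpl33 -0.87, and 4 of the 7 were lower and 3 higher. For rpl22 the signals were 361.6, 926.4 and 398.0 on P-starved and 4579, 1218 and 980.2 on replete replicates 1, 2 and 3, without overlap of the groups.

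Of the 43 plastid photosynthesis genes, the main targets of the plastid-encoded polymerase, 27 were lower and 16 higher over all arrays, with a median log2 difference of -0.15, and 6 had an unadjusted p under 0.05, all lower. The 3 smallest were those of atpI, of ndhH (-1.21 ± 0.30) and of ndhK (-0.65 ± 0.19; SE), the last pair encoding subunits of the NADH dehydrogenase-like complex. On the replicate 1 arrays the median of the 43 was -0.51, and 3 were past the 4-fold mark. On the replicate 2 and 3 arrays 18 of the 43 were lower and 25 higher, with a median of 0.09. Each member was also read relative to these genes, as its log2 value minus their median on the same array. On this scale rpoC2 stood at -2.56, -2.44 and -3.27 on P-starved and at -1.43, -1.87 and -1.73 on replete replicates 1, 2 and 3. The groups did not overlap, and the difference of -1.08 was -1.13 for replicate 1 and -1.05 for replicates 2 and 3. This scale moves the median difference of all probe sets to 0.20. On it 3 of the 69 plastid genes and 0.097% of all tested probe sets were lower without overlap. The subtracted median was highest on replete replicate 1, so relative values are lowered most there. Few probe sets without a like rise on that array can then pass, so the 0.097% does not show that rpoC2 is rare. The relative value of rpoC1 was -3.44 ± 1.14 in P-starved and -2.25 ± 0.89 in replete shoots (SD, n = 3 each). For rpoB the relative difference was -1.08 for replicate 1 and 0.08 for replicates 2 and 3, and for rps2 -1.92 and 0.04. Taken instead against the 15 other plastid ribosomal protein and polymerase genes, the difference over all arrays was 0.47 for rpoB, 0.16 for rps2, -0.41 for rpoC1 and -0.30 for rpoC2, so that the sign of rpoB and rps2 turned. The groups of rpoC2 then overlapped, with -0.07, -2.09 and -1.27 on P-starved and -0.22, -1.48 and -0.83 on replete replicates 1, 2 and 3, and its difference was 0.15 for replicate 1.

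The nuclear side of the machinery was mostly out of reach by name. None of the 6 sigma factor genes and none of 12 genes of polymerase-associated proteins had a probe set of its own with a value on all arrays. Of the 3 phage-type polymerases 1 was measured, AT5G15700, whose product works in both mitochondria and plastids of Arabidopsis. It had 20.6, 39.8 and 83.7 on P-starved and 19.5, 114.5 and 38.8 on replete replicates 1, 2 and 3, and a log2 difference of -0.11 ± 0.44 (SE). The arrays of the 2 groups overlapped throughout. Of 10 nuclear genes for proteins of the plastid small ribosomal subunit 3 were measured. AT1G64510 had a log2 difference of -0.61 ± 0.34, AT3G13120 -0.22 ± 0.24 and AT5G24490 0.11 ± 0.17 (SE), and on the replicate 1 arrays they had -0.21, -0.11 and -0.10.

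Likeness to the polymerase genes was measured as Pearson's r over the 6 arrays between log2 values centred within each processing set, against the mean of rpoB, rpoC1 and rpoC2. Among 3458 probe sets with 1 gene and a mean signal of 100 or more, 40 (1.16%) had an r of 0.95 or more, and 11 of these were plastid genes. The 5 most alike were AT3G56300 with 0.999, the photosystem II reaction centre gene psbD with 0.997, AT5G35200 with 0.996, AT5G49840 with 0.992 and AT3G24250 with 0.991. Likeness here is one of shape within the sets and not of size: their log2 differences were -0.24, -0.35, -0.38, -0.45 and -0.81. Centring also removes differences in level between the sets. The ratio of replete replicate 1 to the mean of replete replicates 2 and 3 was 0.238 for AT3G56300 and 0.326 for AT3G24250. It was 2.37 for psbD, 2.57 for AT5G35200 and 1.51 for AT5G49840, and 6.28 to 14.4 for rpoB, rpoC1 and rpoC2. For rps2 the r with the mean of the polymerase genes was 0.90, under the 0.95 mark. The share of probe sets at 0.90 or more and the number of plastid genes ranked were not counted, so how usual such values are is not known. The centred values rest on few independent differences, and the arrays are shared by all genes, so no p is given.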

How the data were processed

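The authors deposited a MAS5 signal for each probe set of the ATH1 array, an intensity on a linear scale, per the submitters' processing notes. The sources used here give no version of MAS5, no masking of probes and no genome build. Each array was scaled to a 2% trimmed mean of 100, and log2(signal + 16) was taken. The 64 control probe sets were left out. Precision is limited by the number of arrays, and detection calls were not used. Names come from the gene table of the platform, in which 13513 of 22810 have 1 gene, 503 several and 8794 none given here, with symbols from RefSeq (TAIR10.1). Names are those of Arabidopsis, and Brassica gene copies are not told apart.

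The group difference was fitted in R 4.3.3 with limma 3.58.1 (lmFit, eBayes with a trend), with group and processing set as terms, two-sided, and Benjamini-Hochberg adjustment over all 19578 probe sets at 0.05. A second model added their product. The fits were tested on simulated data. Same-numbered arrays deviated together from their group means (r of 0.84, 0.55 and 0.53 for replicates 1, 2 and 3), but within the second processing set r was 0.016. Alternatives were other offsets, scalings and filters, group alone, the replicate number as a block, and leaving out each array. All members and lists were chosen with earlier results of these data known. Named from each list are all genes of a list of 4 or fewer, otherwise the 3 of smallest p, besides 5 genes chosen by likeness to the polymerase genes. Genes at or near the 4-fold mark, and rpl33, were named after their values were seen. No sequences are shown.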

Additional observations from a re-analysis of the deposited data

How the results depend on the processing

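In limma, 0 probe sets passed in either direction under any of the alternatives, for the group difference and for its product with the processing set. On the replicate 2 and 3 arrays alone rpoB turned to 0.39 and rps2 to 0.35, and with each array left out in turn rpoB ranged from -0.86 to 0.39 and rps2 from -1.28 to 0.35. The fits with a turned sign take the difference from the replicate 2 and 3 arrays alone. Why it was unlike that on the replicate 1 arrays was not tested. Over all 18 alternatives rpoC1 stayed between -2.70 and -0.71 and rpoC2 between -2.31 and -0.74. Relative to other plastid ribosomal protein and polymerase genes rpoB turned to 0.47 and rps2 to 0.16, and rpoC2 moved to -0.30. With the replicate number as a block the differences were the same, with an adjusted p of 0.801 for rpoC1 and rpoC2, 0.859 for rpoB and 0.823 for rps2, and the pairing changed no adjusted call. The unadjusted p of rpoC1 was then 0.054 in place of 0.0428. Setting the plastid photosynthesis genes to an equal median on all arrays, chosen after seeing the data, shifted the median of all probe sets from 0.02 to 0.20 and gave -0.31 for rpoB, -1.19 for rpoC1, -1.08 for rpoC2 and -0.61 for rps2, with an unadjusted p of 0.0569 for rpoC1 and 0.0788 for rpoC2 in limma. The product term kept its sign for all 4 genes under its 4 alternatives, with adjusted p from 0.0883 to 0.995. Between 21.8% and 33.9% of tested probe sets lay under a signal of 16 on an array, which limits dim genes such as rpoB.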
